A study of Mus musculus with 53 samples.

Results

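Genes of the circadian clock and of its repressors, 10 in all, were followed through IL-4 treatment of mouse macrophages. They were 3 repressor genes (Nfil3, Bhlhe40 and Bhlhe41), 4 clock-controlled outputs (Dbp, Tef, Nr1d1 and Nr1d2) and 3 core genes (Per1, Per2 and Arntl). The 10 were taken by gene symbol from the 23847 loci listed for each sample, and each symbol matched 1 locus. The cells were bone marrow-derived macrophages (BMDMs), which are bone marrow progenitors matured in culture, here for 6 days in L929 cell supernatant, from mice of 8 to 12 weeks. WT cells and cells of full-body Stat6-/- mice (labelled Stat6KO), which lack a working form of the transcription factor that IL-4 activates, were given IL-4 at 20 ng/ml and harvested 1, 3, 6 or 24 h later, beside untreated controls of each time. A control at 0 h was also taken. Every WT group held 4 samples, except 3 for 24 h of IL-4, where the sample numbered 1 was not analysed here, and every Stat6KO group held 2. The study describes its WT expression data as coming from individual animals, but the labels do not say which number is which animal, or whether a number is the same animal in every group. P-values measure the spread between these samples. The labels give the hours since IL-4, and no hour of the day at harvest was used.

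The clock of mammalian cells is a loop in which ARNTL (also called BMAL1) pairs with CLOCK, binds E-box sequences and switches on the Per and Cry genes, whose proteins then shut the pair off. BHLHE40 and BHLHE41 (DEC1 and DEC2) bind E-boxes as well and repress from them. The nuclear receptors encoded by Nr1d1 and Nr1d2 (REV-ERBα and REV-ERBβ) repress Arntl and Nfil3, while DBP and TEF activate, and NFIL3 represses, genes that carry a D-box. In macrophages the clock is known for gating inflammatory responses by time of day, and NFIL3 and BHLHE40 are also known as regulators of cytokine genes.

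Expression was measured by polyadenylated RNA-seq as FPKM (fragments scaled to the transcript's length and to the mapped fragments of the sample), a per-length level, and differences were tested on the log2(FPKM + 1) scale, which understates changes of low genes. A gene passed at an adjusted p under 0.05 (limma, Benjamini-Hochberg, over the 11146 loci that reached 1 FPKM in at least 1 sample) and was called when the log2 difference was also at least 1 in size. The ± after a log2 difference is its SE, and the ± after an FPKM mean is the SD. All 10 genes met the filter, but Per2 did so in 1 of 53 samples, a Stat6KO sample at 1.00 FPKM. FPKM sums ran from 385888.9 to 464914.9 per sample, and relative depth from 0.706 to 1.555 of the median sample. Stat6 lay between 58.7 and 90.6 FPKM in WT samples and between 14.3 and 24.0 in Stat6KO samples. Of the macrophage markers, all 6 were present in every sample, lymphocyte and stromal markers reached 0.39 FPKM at most, and the granulocyte genes S100a8 and S100a9 were at 80.7 FPKM or more in every sample. In bulk samples fewer cells of a type and less RNA per cell cannot be told apart.

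In untreated WT cells at 0 h the order of the mean levels was Tef (14.3 ± 1.51 FPKM, SD, n = 4), Nr1d2 (10.8), Nfil3 (6.76), Bhlhe41 (6.65), Per1 (5.82), Dbp (5.48), Arntl (4.78), Bhlhe40 (1.52), Nr1d1 (1.28) and Per2 (0.46). Sample ranges of neighbours in this order overlapped for Tef and Nr1d2, for every step from Nfil3 to Arntl, and for Bhlhe40 and Nr1d1. The steps from Nr1d2 to Nfil3, from Arntl to Bhlhe40 and from Nr1d1 to Per2 showed no overlap.

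Promoters of 8 of the 10 genes were found in RefSeq (build GRCm38.p6, 11 start sites), and the 250 bases before each start were searched on both strands. The motifs were the E-box CACGTG, the D-box as TTATGTAA or TTACGTAA, the cyclic AMP response element TGACGTCA, the STAT6-type spacing (TTC and GAA with 4 bases between them), the shorter STAT spacing TTCNNNGAA, and the REV-ERB/ROR half-site as TAGGTCA or TGGGTCA. Among 32851 promoter windows of this length these letters were present in 6.02%, 0.931%, 1.55%, 5.85%, 7.02% and 5.38%, in that order. The E-box was found before Bhlhe41, Per1 and both starts of Tef, TTCNNNGAA before Dbp and the second start of Per1, and a half-site before Nfil3. No searched letters were present in the windows of Nr1d1, Nr1d2 and Arntl. No window of Bhlhe40 or Per2 was searched. The 3 windows printed are those of Nfil3, which had the earliest response, and of Dbp and Tef, which fell together at 24 h; capitals mark the match, read 5′ to 3′ on the gene's strand, and each window ends at the base before the start. Nfil3 was read at chr13:52981040-52981289 (minus strand), Dbp at chr7:45704997-45705246 (plus strand) and the first start of Tef at chr15:81802423-81802672 (plus strand).
Nfil3: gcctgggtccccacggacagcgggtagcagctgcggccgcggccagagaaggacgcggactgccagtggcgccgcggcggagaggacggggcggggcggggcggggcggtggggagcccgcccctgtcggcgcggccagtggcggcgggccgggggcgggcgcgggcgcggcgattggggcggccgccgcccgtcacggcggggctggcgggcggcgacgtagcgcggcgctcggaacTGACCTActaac
Dbp: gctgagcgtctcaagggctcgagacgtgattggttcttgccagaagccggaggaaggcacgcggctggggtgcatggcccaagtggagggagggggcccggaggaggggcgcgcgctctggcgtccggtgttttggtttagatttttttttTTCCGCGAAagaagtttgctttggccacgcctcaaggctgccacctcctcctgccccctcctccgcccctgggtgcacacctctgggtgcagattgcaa
Tef: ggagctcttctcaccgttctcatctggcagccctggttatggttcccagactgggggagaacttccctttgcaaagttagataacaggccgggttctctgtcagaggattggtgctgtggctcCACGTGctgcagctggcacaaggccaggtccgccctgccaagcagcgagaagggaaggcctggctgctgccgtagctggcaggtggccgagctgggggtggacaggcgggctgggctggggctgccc
A match of letters is a description of the window and not a binding site.

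IL-4 raised Nfil3 in WT cells within 1 h and Bhlhe40 from 3 h, while Bhlhe41, the paralog of Bhlhe40, fell at 3 and 6 h and lay among the controls at 24 h. The 2 genes that rose did so in opposite time courses. Nfil3 was highest at 1 h, and Bhlhe40 was highest at 24 h.

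Nfil3 (mm10 chr13:52967209-52981039, minus strand, a protein-coding gene) encodes the D-box repressor also called E4BP4. At 1 h it was at 95.5, 90.1, 108 and 98.0 FPKM in the 4 WT samples with IL-4 and at 5.10, 4.85, 6.18 and 5.15 in the 4 controls. Every treated sample was far above every control. The means were 98.0 ± 7.68 and 5.32 ± 0.59 FPKM (SD, n = 4 each), a ratio of 18.4, and the log2 difference was 3.97 ± 0.14, adjusted p = 4.91e-23. With longer treatment the mean level was lower, namely 89.4 ± 4.704 FPKM after 3 h (n = 4), 82.0 ± 3.77 FPKM after 6 h (n = 4) and 33.3 ± 1.49 FPKM after 24 h (n = 3). Untreated cells moved the other way, from 6.76 ± 0.30 FPKM at 0 h to 10.6 ± 2.19 at 24 h. The ratio to the control therefore shrank from both sides, being 9.59 after 3 h, 9.25 after 6 h and 3.15 after 24 h. At 24 h the log2 difference was 1.59 ± 0.15, adjusted p = 5.53e-11, with treated samples at 31.6, 34.0 and 34.4 FPKM and controls at 10.6, 7.54, 12.7 and 11.5. The groups did not overlap at any time. The response at 24 h differed from that at 1 h by -2.38 ± 0.21, adjusted p = 1.53e-11 on the log2 scale.

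Bhlhe40 (mm10 chr6:108660629-108666925, plus strand) encodes the E-box repressor DEC1. At 1 h the WT samples with IL-4 were at 2.06, 1.51, 2.35 and 3.22 FPKM and the controls at 2.66, 2.09, 2.12 and 2.98, so the groups overlapped (log2 difference -0.09 ± 0.31, adjusted p = 0.931). At 3 h the treated samples reached 5.75, 3.91, 5.49 and 6.80 FPKM against 1.84, 1.45, 1.44 and 1.61, and all 4 were above all controls (1.31 ± 0.31, adjusted p = 0.000978). The gap widened at 6 h, with 12.9 ± 1.85 FPKM against 1.31 ± 0.30 (SD, n = 4 each; log2 difference 2.58 ± 0.31, adjusted p = 8.63e-09). At 24 h the 3 treated samples were at 86.2, 68.2 and 67.8 FPKM and the 4 controls at 1.62, 1.35, 1.92 and 3.59. The ratio of the means was 34.9, and the log2 difference of 4.63 ± 0.34, adjusted p = 2.51e-14 was the widest of any of the 10 genes at any time. It exceeded the difference at 1 h by 4.72 ± 0.46, adjusted p = 1.31e-10. The antisense gene 0610040F04Rik overlaps Bhlhe40, and reads of the pair cannot be told apart without strand, but its own estimate stayed at or below 0.03 FPKM as a group mean in all 18 groups.

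Bhlhe41 (mm10 chr6:145858243-145865420, minus strand), which encodes DEC2, took a different course. At 1 h its treated samples, at 6.70, 6.74, 5.30 and 5.91 FPKM, were all below the controls at 8.41, 7.84, 8.13 and 8.46, but the difference did not pass (-0.37 ± 0.26, adjusted p = 0.492). The 4 WT samples with IL-4 were at 2.804, 3.67, 2.54 and 1.82 FPKM at 3 h, all below the controls at 7.14, 6.49, 6.28 and 4.96 (-0.97 ± 0.26, adjusted p = 0.00368). At 6 h they were at 2.16, 1.98, 1.85 and 2.13 against 6.63, 5.15, 5.24 and 5.96, again without overlap (-1.15 ± 0.26, adjusted p = 0.000461). The change at 3 h was just short of 2-fold on this scale, and that at 6 h was past it. At 24 h the treated samples, at 5.90, 7.55 and 9.16 FPKM, lay on both sides of the controls at 6.56, 6.44, 7.07 and 8.16, and the difference was 0.07 ± 0.28, adjusted p = 0.855 (95% interval -0.51 to 0.65). The lowest levels of Bhlhe41 thus came while Bhlhe40 was rising.

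**Figure D1:**
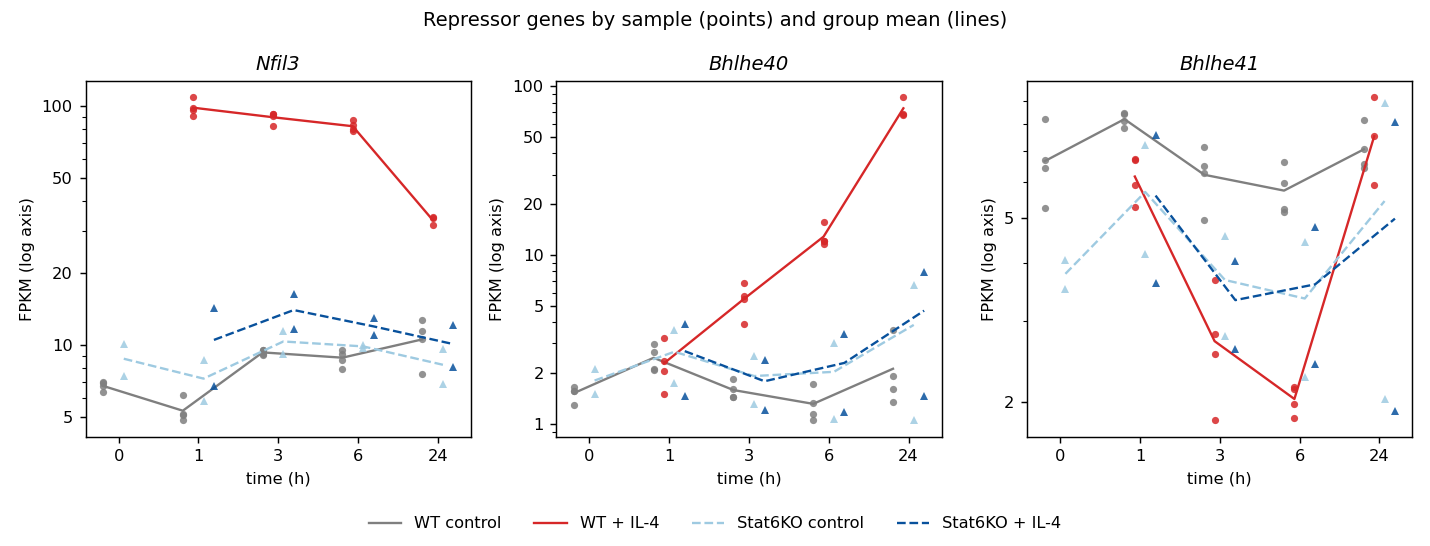
Levels of Nfil3, Bhlhe40 and Bhlhe41 (FPKM, log axis) by time after IL-4 (h, evenly spaced categories). Points are samples and lines join group means for WT and Stat6KO cells with and without IL-4. WT cells with IL-4 separate from all other groups in Nfil3 from 1 h and in Bhlhe40 from 3 h, and dip in Bhlhe41 at 3 and 6 h.

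The clock-controlled outputs fell in WT cells at 24 h of IL-4, when their controls were at or near the highest levels of the series. Dbp and Tef, which encode D-box activators, and Nr1d2 were called lower at 24 h, and Nr1d1 passed without reaching 2-fold on this scale. Of these 4 genes only Nr1d1 at 1 h and Nr1d2 at 3 h passed before 24 h in the model without replicate numbers. With the replicate number as a block, Dbp, Tef and Nr1d1 also passed at 3 h (limma, adjusted p = 0.00449, 0.00372 and 0.00811). Dbp, Nr1d1 and Nr1d2 then passed at 6 h (0.0432, 0.00697 and 0.00152). Of all loci 28.9% and 41.2% passed at 3 and 6 h without the block. The shares with the block are not given here, so these added passes are not read as particular to the outputs. The treated mean FPKM was lower in 12 of 12 comparisons of these genes from 1 to 6 h. For Nr1d2 at 1 h the ratio was 0.99 and the log2 difference was 0.02 ± 0.22, so that comparison was level. The 12 share samples and are not independent. Dbp, Tef and Nr1d1 were higher with IL-4 in 0 of 15 WT comparisons of same-numbered samples, and Nr1d2 in 2. In Stat6KO cells Dbp, Tef and Nr1d2 were each higher in 1 of 8 such comparisons, and Nr1d1 in 2. Lower values with IL-4 were thus not particular to WT in these counts. The comparisons reuse the same numbers at several times, and such counts over all loci were not taken.

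Dbp (mm10 chr7:45705247-45710203, plus strand) changed most. Its 3 WT samples with 24 h of IL-4 were at 0.87, 1.82 and 1.81 FPKM, and the 4 controls were at 10.5, 8.80, 9.02 and 8.73. The treated samples were all below the lowest control. The means were 1.502 ± 0.54 and 9.27 ± 0.85 FPKM, a ratio of 0.16, and the log2 difference was -2.06 ± 0.40, adjusted p = 4.04e-05. The treated samples at 24 h were also below all 4 samples of the 0 h control, which lay at 5.32, 3.36, 5.80 and 7.45 FPKM. That second comparison was not fitted and is given as values. At 1, 3 and 6 h the ratios were 0.66, 0.53 and 0.66, the groups overlapped, and the adjusted p-values were 0.515, 0.158 and 0.309. Dbp overlaps Sphk2 on the opposite strand, whose level was 26.2 ± 0.52 FPKM with 24 h of IL-4 and 27.0 ± 2.43 in its control. At 1, 3 and 6 h the Sphk2 means were 24.8, 25.2 and 27.6 FPKM with IL-4 and 34.2, 30.0 and 30.4 without.

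Tef (mm10 chr15:81802673-81826863, plus strand) was the most abundant of the 10 genes in untreated cells. At 24 h it was at 7.70, 8.36 and 9.49 FPKM with IL-4 and at 18.8, 18.3, 18.9 and 17.96 without. The groups were far apart relative to their spread (8.51 ± 0.91 against 18.5 ± 0.46 FPKM), and the log2 difference was -1.04 ± 0.20, adjusted p = 3.35e-05. As with Dbp, the treated samples were below every 0 h control, which ran from 12.2 to 15.5 FPKM. The call rests on a value close to 2-fold, since scaling every sample to a common median gave -0.97 and leaving out the samples numbered 2 gave -0.98.

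Nr1d2 (mm10 chr14:18204056-18239106, minus strand) encodes the repressor REV-ERBβ. It was at 5.41, 7.45 and 7.65 FPKM with 24 h of IL-4 and at 15.4, 17.8, 15.3 and 15.3 in the controls, again without overlap (-1.12 ± 0.24, adjusted p = 0.000138). Without the WT samples numbered 2 the value was -0.93, which passed but was below 2-fold. It had already been lower at 3 h, at 5.48, 6.83, 7.69 and 8.10 FPKM against 10.3, 9.81, 12.99 and 14.4 (-0.68 ± 0.22, adjusted p = 0.0166). At 6 h the groups overlapped (-0.52 ± 0.22, adjusted p = 0.0578). The 3 h value no longer passed without the samples numbered 1, 3 or 4 (adjusted p = 0.0911, 0.0979 and 0.081).

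Nr1d1 (mm10 chr11:98767935-98775242, minus strand) encodes REV-ERBα and was low throughout. At 1 h the WT samples with IL-4 were at 0.96, 0.80, 1.27 and 1.53 FPKM and the controls at 2.24, 2.09, 3.07 and 3.86. All treated samples were below all controls, and the difference was -0.82 ± 0.23, adjusted p = 0.0142. The controls of 1 h were themselves above those of 0 h, which lay at 0.92, 0.82, 1.37 and 2.03 FPKM, and the treated samples lay within the range of 0 h or just below it. Leaving out any 1 of the 4 WT numbers ended this result, with adjusted p-values from 0.0814 to 0.117. At 24 h the values were 0.87, 0.93 and 1.35 FPKM against 2.48, 2.18, 2.58 and 2.54, without overlap (-0.76 ± 0.25, adjusted p = 0.0103), and the result no longer passed without the samples numbered 2 or 3 (adjusted p = 0.0648 and 0.101). With a pseudocount of 0.1 FPKM, which weighs low values more, the log2 differences were -1.23 at 1 h and -1.17 at 24 h. The gene adjoins Thra on the other strand, and the annotation of the same build has them overlap at their ends. Thra was also lower with IL-4 in WT cells, with means of 4.63 and 5.21 FPKM with and without IL-4 at 1 h. The means were 3.93 and 5.55 at 3 h, 4.08 and 5.91 at 6 h, and 5.93 and 6.71 at 24 h. The part of Thra reads in the Nr1d1 values was not tested.

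**Figure D2:**
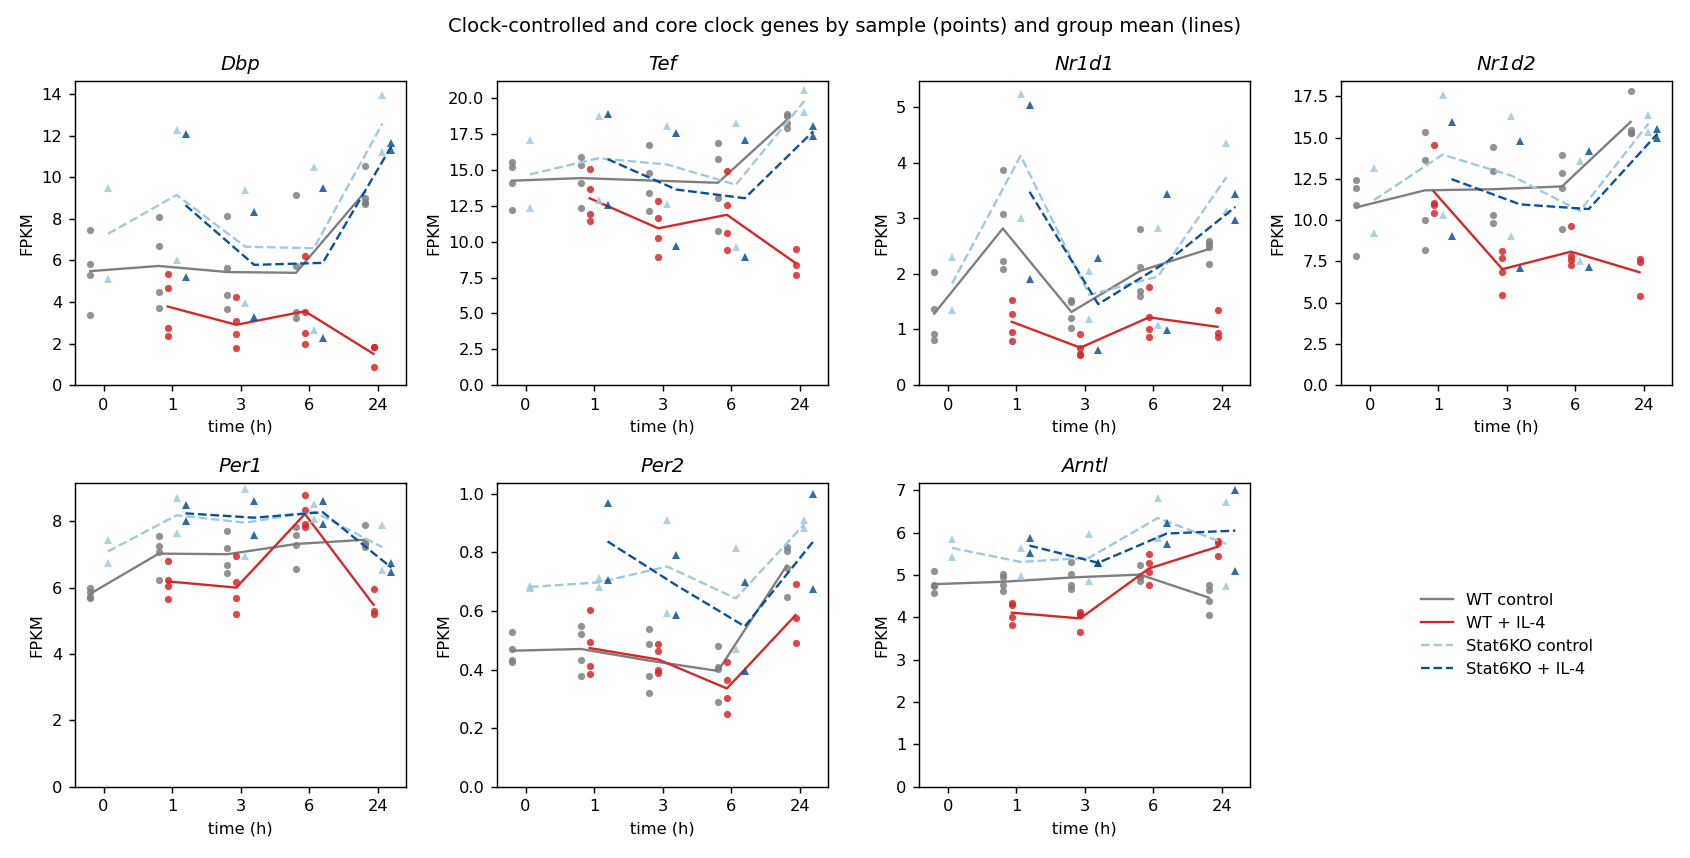
Levels of Dbp, Tef, Nr1d1, Nr1d2, Per1, Per2 and Arntl (FPKM, linear axes from 0) by time (h, evenly spaced categories), with points for samples and lines for group means. At 24 h WT cells with IL-4 lie below the 3 other groups in Dbp, Tef, Nr1d1 and Nr1d2, and Arntl lies above its WT control.

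Marker genes of other cells were also read at 24 h. The summed level of 5 granulocyte markers was 195.0 to 287.4 FPKM in the 3 WT samples with 24 h of IL-4 and 404.2 to 550.2 in the controls, with S100a8 and S100a9 the most abundant of them and no marker at 0. The 6 macrophage markers summed to 2603.5 to 2625.7 and 3273.6 to 3772.9 FPKM in the same groups. The part of either shift in the clock gene values was not tested.

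The core genes of this set, Per1, Per2 and Arntl, changed little. Per1 (mm10 chr11:69098956-69109957, plus strand), a repressor of the ARNTL and CLOCK pair and known to respond quickly to outside signals, was at 6.06, 5.67, 6.81 and 6.23 FPKM after 1 h of IL-4 in WT cells and at 7.25, 6.24, 7.08 and 7.55 without (-0.16 ± 0.07, adjusted p = 0.204). The groups overlapped there, and no early induction of Per1 by IL-4 was detected at 1 h (95% interval of the log2 difference -0.31 to -0.01). At 3 h Per1 passed with a small decrease (-0.20 ± 0.07, adjusted p = 0.0363) although the groups overlapped, and the result was lost without the samples numbered 1, 2 or 3 (adjusted p = 0.187, 0.316 and 0.0929). At 24 h it was at 5.21, 5.30 and 5.96 FPKM against 7.90, 7.31, 7.36 and 7.23, with all treated samples below all controls (-0.38 ± 0.08, adjusted p = 8.95e-05). Per2 (mm10 chr1:91415982-91459328, minus strand), its paralog, stayed between 0.25 and 0.82 FPKM in all WT samples, and no IL-4 comparison passed (log2 differences from -0.15 to 0.01).

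Arntl (mm10 chr7:113207465-113314126, plus strand), the activator of the loop, fell slightly at 3 h and rose slightly at 24 h. At 3 h it was at 3.66, 4.12, 4.08 and 4.05 FPKM with IL-4 and at 5.02, 4.76, 5.31 and 4.67 without (-0.26 ± 0.07, adjusted p = 0.0049). At 24 h it was at 5.80, 5.75 and 5.45 against 4.06, 4.39, 4.77 and 4.65 (0.29 ± 0.08, adjusted p = 0.00184). Neither pair of groups overlapped, and the response differed between 24 h and 1 h by 0.48 ± 0.10, adjusted p = 0.000301. At 1 h its treated samples were also all below the controls, but the difference did not pass (-0.19 ± 0.07, adjusted p = 0.0875). The 3 h decrease was lost without the samples numbered 1 or 3 (adjusted p = 0.0726 and 0.0653).

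Counted together, 1 of the 10 genes was called with IL-4 in WT cells at 1 h (Nfil3), against 1.49% of all loci tested. At 3 h 2 were called (Nfil3 and Bhlhe40; all loci, 3.88%), at 6 h 3 (Nfil3 and Bhlhe40 higher, Bhlhe41 lower; all loci, 5.54%), and at 24 h 5 (Nfil3 and Bhlhe40 higher, Dbp, Tef and Nr1d2 lower; all loci, 8.5%). At an adjusted p under 0.05 alone the counts were 2, 6, 3 and 8 of 10, against 9.39%, 28.9%, 41.2% and 55% of all loci. The median log2 difference of the 10 at 24 h was -0.26, and that of all loci was -0.07. Between the responses at 24 h and 1 h, 4 of the 10 were called different (Bhlhe40 higher, Nfil3, Dbp and Nr1d2 lower; all loci, 8.98%). Tef passed with -0.90 ± 0.27, adjusted p = 0.00686, and was lost without the samples numbered 2 or 3, as was Nr1d2 without those numbered 2 (adjusted p = 0.118). The difference of Dbp (-1.56 ± 0.54, adjusted p = 0.0183) was lost without the samples numbered 1, 2 or 3, with adjusted p-values up to 0.108.

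In Stat6KO cells none of the 10 genes passed at any time. In limma 0% of all 11146 loci were called, or passed, in each of the 4 comparisons, while at an unadjusted p under 0.05 there were 51, 131, 88 and 37 loci at 1, 3, 6 and 24 h (0.458%, 1.18%, 0.79% and 0.332%). Among the 10 genes the unadjusted p was under 0.05 once, for Nfil3 at 1 h. The Stat6KO groups hold 2 samples each, so these comparisons are less precise than those in WT. The 4 shares at an unadjusted p are also below the 0.05 share expected with no difference at any locus. This model counts differences between replicate numbers as spread, so a lack of passes does not show a lack of response. With the number as a block none of the 10 passed either. Nfil3 then had an unadjusted limma p of 0.0271 at 1 h and 0.0388 at 3 h. Nfil3 was at 6.76 and 14.3 FPKM with IL-4 and 5.83 and 8.66 without at 1 h, and the log2 difference was 0.42 (95% interval 0.01 to 0.83; adjusted p = 1). The groups overlapped at 1 and 24 h but not at 3 h (11.7 and 16.3 FPKM against 9.21 and 11.5) or 6 h (11.002 and 12.9 against 10.01 and 9.74). In 8 of 8 comparisons of samples with the same number Nfil3 was higher with IL-4, by far less than in WT. Bhlhe40 at 24 h was at 7.90 and 1.47 FPKM with IL-4 and 6.66 and 1.05 without, so that the 2 numbers differed much more than the treatments (0.24, 95% interval -0.65 to 1.13). Dbp at 24 h was at 11.7 and 11.3 FPKM with IL-4 and 11.2 and 14.0 without (-0.11, 95% interval -1.17 to 0.94). Tef at 24 h was at 18.1 and 17.4 FPKM with IL-4 and 19.1 and 20.6 without, both below both controls (-0.15, 95% interval -0.68 to 0.37; adjusted p = 1). For the other 9 genes the 2 Stat6KO groups overlapped at 24 h.

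The difference between the WT and Stat6KO responses was tested directly. At 1 h it was called for 1 of the 10 genes, Nfil3 (3.55 ± 0.25, adjusted p = 3.36e-13; all loci, 1.25%). At 3 h the call was again Nfil3 alone (2.74; all loci, 3.48%), and Bhlhe40 did not pass (log2 difference 1.38 ± 0.54, adjusted p = 0.103). At 6 h Nfil3 (2.82) and Bhlhe40 (2.48 ± 0.54, adjusted p = 0.000806) were called (all loci, 4.41%), and Bhlhe41 did not pass (-1.23 ± 0.46, adjusted p = 0.0598). At 24 h 4 of the 10 were called (all loci, 6.85%), Bhlhe40 (4.39 ± 0.55, adjusted p = 1.19e-07), Nfil3 (1.34), Dbp (-1.95 ± 0.66, adjusted p = 0.0241) and Nr1d2 (-1.07 ± 0.39, adjusted p = 0.0384), and Tef passed (-0.88 ± 0.33, adjusted p = 0.0402). Those of Dbp, Nr1d2 and Tef were close to the threshold in this model, which leaves out the replicate number. Dbp was lost without the WT samples numbered 1, 2 or 3 (adjusted p = 0.0613, 0.0778 and 0.0686), and Nr1d2 without any 1 of the 4 WT numbers (adjusted p from 0.0536 to 0.163), as was Tef (from 0.0535 to 0.132). Nr1d1 (-0.59) and Per1 (-0.27) did not pass at 24 h. With the replicate number as a block, limma gave adjusted p = 2.97e-05 for Dbp, 0.000276 for Nr1d2 and 9.49e-05 for Tef at 24 h. The labels do not say that the numbers mark pairs.

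The controls were compared with 0 h to see how the genes moved without IL-4. In limma none of the 10 was called at any time in either genotype, against 0%, 0.00897%, 0.0179% and 1.13% of all loci in WT at 1, 3, 6 and 24 h and 0%, 0%, 0% and 0.161% in Stat6KO. At an adjusted p under 0.05 alone 3 passed, all in WT at 24 h, where all loci gave 2%, 0.144%, 0.135% and 17.2% in WT and 0.0807%, 0%, 0% and 0.718% in Stat6KO. These were Nfil3 (0.56 ± 0.14, adjusted p = 0.00609), Per1 (0.31 ± 0.07, adjusted p = 0.00266) and Per2 (0.26 ± 0.07, adjusted p = 0.012). Per2 was under 1 FPKM in every WT sample and met the filter only through a Stat6KO sample with 24 h of IL-4. Its pass is therefore no support for a change with time. Nfil3 and Per2 were lost without the samples numbered 1, 3 or 4, and Per1 without those numbered 1 (adjusted p up to 0.0923, 0.136 and 0.0552). At an unadjusted p under 0.05 the counts were 3, 2, 2 and 5 of 10 in WT (all loci, 11.7%, 6.48%, 8.1% and 31.1%) and 1, 0, 0 and 1 in Stat6KO (all loci, 4.43%, 3.89%, 2.4% and 14.7%). Dbp had the largest difference at 24 h that did not pass, from 5.48 ± 1.68 FPKM at 0 h to 9.27 ± 0.85 in WT (0.70 ± 0.37, adjusted p = 0.192) and from 9.47 and 5.08 to 11.2 and 14.0 in the Stat6KO samples (0.76 ± 0.52, adjusted p = 0.501). Tef at 24 h, at 17.96 to 18.9 FPKM, was above every 0 h sample in WT, but its adjusted p was 0.178. Nr1d2 was likewise above every 0 h sample (0.54 ± 0.22, adjusted p = 0.0834). Nr1d1 stood higher at 1 h than at 0 h in every WT sample (0.75, adjusted p = 0.0847) and in both Stat6KO samples (0.84, adjusted p = 0.708), and was lower again at 3 h in both. Arntl and Bhlhe41 were nearly level, with log2 differences at 24 h of -0.08 and 0.08 in WT. Leaving out 1 of the Stat6KO numbers at 24 h, with the lone sample assumed to vary like the others, gave 1 call each, Nr1d1 or Bhlhe40.

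Samples of one group differed in the outputs, and mostly in the same order from group to group. In the 7 WT groups from 0 to 6 h, Dbp was highest in the sample numbered 4 in 6 groups and lowest in the sample numbered 2 in all 7. In the 6 h controls it was at 3.51, 3.21, 5.73 and 9.16 FPKM in the samples numbered 1 to 4. Tef had the same counts, and Nr1d1 and Nr1d2 were highest in number 4 in all 7 groups. At 24 h the spread of the controls closed, with Dbp at 10.5, 8.80, 9.02 and 8.73 FPKM in the same order. The coefficient of variation of Dbp was 30.7% to 53% in the WT groups from 0 to 6 h and 9.2% in the 24 h controls. In Stat6KO cells number 1 was above number 2 in all 7 groups from 0 to 6 h for Dbp, Tef, Nr1d1, Nr1d2, Bhlhe40 and Bhlhe41. Dbp in the 6 h controls was at 10.5 and 2.66 FPKM in numbers 1 and 2, and at 24 h at 11.2 and 14.0. A test of the replicate number within genotype, chosen after seeing the data (limma F test, adjusted over all loci), passed in WT for Dbp (adjusted p = 3.22e-05), Tef (0.000158), Nr1d1 (0.00121), Nr1d2 (0.00242) and Per2 (0.0114), against 41.8% of all loci, and for all 10 genes in Stat6KO, against 60.4%. Bhlhe40 and Bhlhe41 behaved differently, since in Stat6KO cells their numbers were furthest apart at 24 h, at 6.66 and 1.05 and 8.88 and 2.03 FPKM in the controls.

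**Figure D3:**
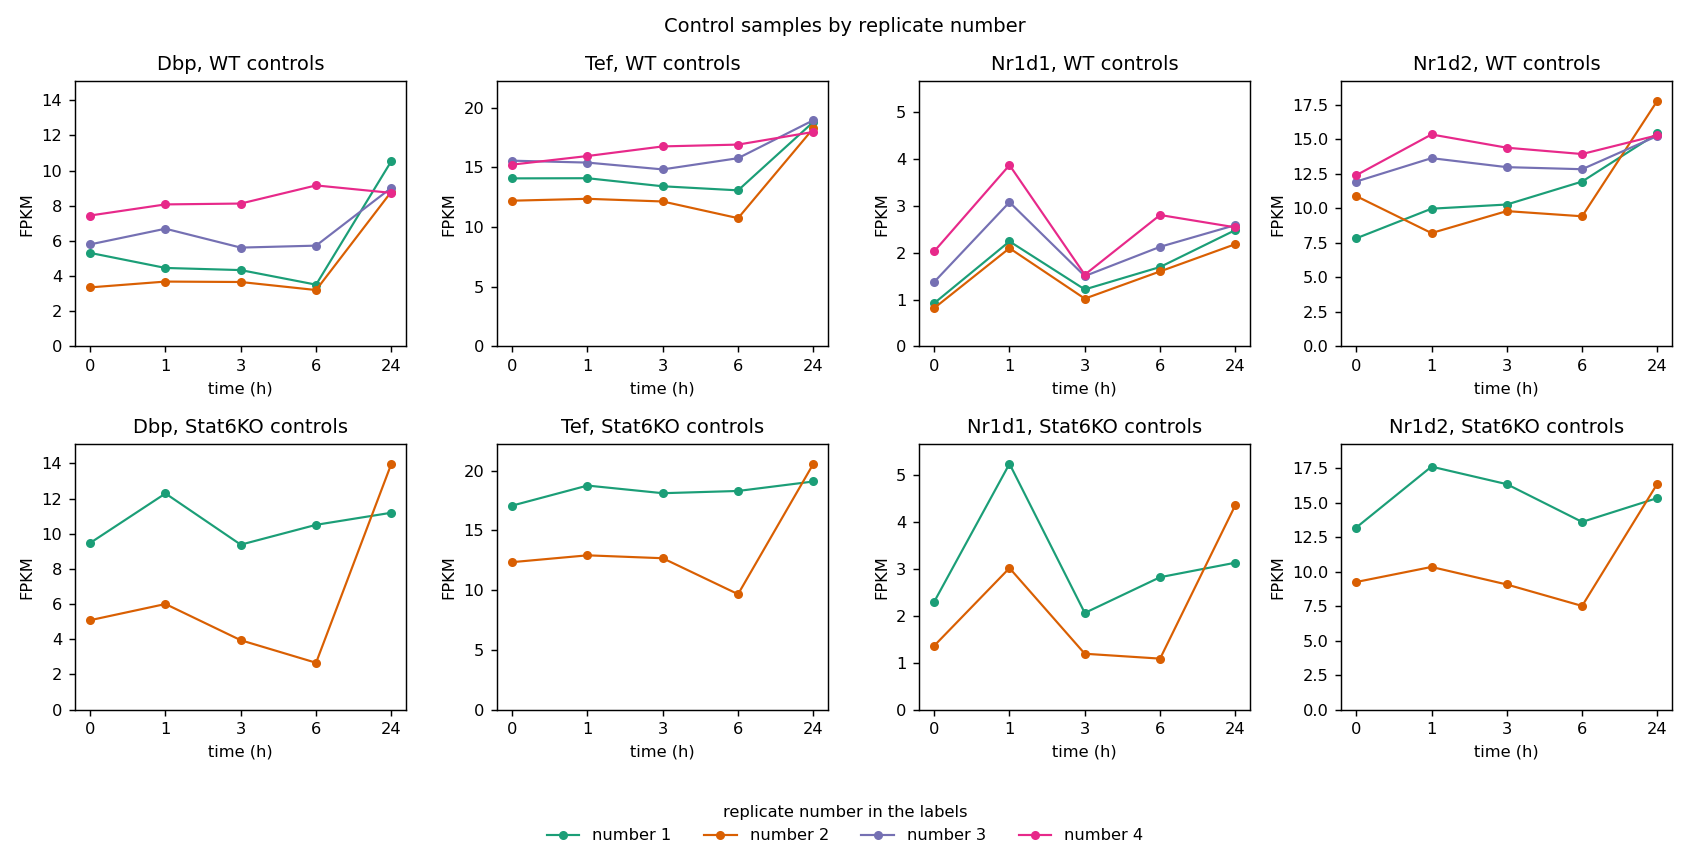
Levels of Dbp, Tef, Nr1d1 and Nr1d2 (FPKM, linear axes from 0) in untreated samples by time (h, evenly spaced categories), WT above and Stat6KO below, with a line for each replicate number of the labels. The lines keep their order from 0 to 6 h in most panels and come together or cross at 24 h.

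Between genotypes, the controls of all times gave no call among the 10 genes in limma (all loci, 0.287%), and 4 passed, Per2 among them (all loci, 21.4%), which were also the 4 with an unadjusted p under 0.05 (all loci, 32.3%). Bhlhe41 was lower in Stat6KO (-0.61 ± 0.14, adjusted p = 0.00194), and Arntl (0.20) and Per1 (0.14) were higher. These tests count 10 Stat6KO control samples that carry only 2 numbers. Without the Stat6KO samples numbered 2, Bhlhe41 (-0.22, adjusted p = 0.0594), Arntl (0.09, adjusted p = 0.0536) and Per1 (0.05, adjusted p = 0.467) no longer passed. Per2 (log2 difference 0.21) met the 1 FPKM filter only through a Stat6KO sample, the genotype in which it was higher, so its pass is no support for a difference. The summed granulocyte markers were 514.0 to 962.5 FPKM in Stat6KO controls and 268.9 to 550.2 in WT controls, and their part in these differences was not tested.

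Of 20 other clock genes, 15 reached 1 FPKM and were tested. With IL-4 in WT cells 0, 0, 0 and 1 of the 15 were called at 1, 3, 6 and 24 h. The shares of all loci called were 1.49%, 3.88%, 5.54% and 8.5%. At an adjusted p under 0.05 alone the counts were 3 lower and 0 higher at 1 h, and 2 lower and 2 higher at 3 h. They were 2 lower and 1 higher at 6 h, and 5 lower and 3 higher at 24 h. All loci gave 9.39%, 28.9%, 41.2% and 55%, with both directions together. The call was Per3, a further Per gene, at 0.59 ± 0.032 FPKM with IL-4 and 2.64 ± 0.058 in the control at 24 h (-1.20 ± 0.27, adjusted p = 0.000294). Csnk1e, a kinase that phosphorylates PER proteins, was lower from the first hour, at 8.63 ± 0.52 FPKM against 17.4 ± 1.95 (-0.93 ± 0.10, adjusted p = 3.25e-09), and its paralog Csnk1d was higher at 6 h (0.56 ± 0.05, adjusted p = 7.79e-13). Usp2, a deubiquitinase gene with clock-driven expression in many tissues, had a log2 difference of -0.30 ± 0.08, adjusted p = 0.00658 at 1 h. It was higher at 24 h (0.76 ± 0.08, adjusted p = 8e-10). Usp2 reached at most 1.59 FPKM in any sample, near the 1 FPKM filter. The groups in which it met that filter are not given here, so the passes of Usp2 are not read as support for a difference. In Stat6KO cells none of the 15 passed with IL-4. Timeless was called lower in the WT controls at 24 h against 0 h (-1.36 ± 0.24, adjusted p = 7.92e-05).

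The fast course of Nfil3 was set beside 16 immediate early genes, which respond to many stimuli without new protein synthesis. Of the 15 tested, 3 were called higher and 4 lower at 1 h in WT (all loci, both directions, 1.49%). The 3 were Ier3 (3.68), Egr2 (3.25) and Klf4 (1.78), and the 4 were Dusp1 (-2.26), Fos (-2.18), Btg2 (-1.67) and Nr4a1 (-1.04). At 24 h 4 were called higher and 1 lower (all loci, both directions, 8.5%). The median log2 difference of the 15 at 1 h was -0.20. Nfil3 at 1 h (3.97) was above each of them on the same scale.

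Among genes reported as targets of NFIL3 or BHLHE40, Maf, which encodes a transcription factor of macrophages, was at 13.9 ± 1.17 FPKM with 24 h of IL-4 and 72.4 ± 3.82 in the control (-2.30 ± 0.19, adjusted p = 5.16e-13). Il10 passed as higher at 3 h (0.88) and 6 h (0.71) and as lower at 24 h (-0.70). Il12b passed in no WT comparison with IL-4, but it reached at most 1.07 FPKM in any sample, a level at which this scale can hardly show a decrease.

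Over the 18 group means of log2(FPKM + 1), the loci most like Bhlhe40 were Lrrc32 (Pearson r = 0.99), Ear11 (0.98) and Nek6 (0.98), and those most like Nfil3 were Rnf19b (0.98), Socs1 (0.98) and Olr1 (0.97). The locus most like Dbp was Tef (0.97), which is itself 1 of the 10 genes, followed by Itm2b (0.94) and 1700026L06Rik (0.93). Per1 had no close match, with 1500011B03Rik, Araf and Fermt3 at 0.84 to 0.85. These values describe groups that share libraries and controls. By Spearman's rho Tef was again first for Dbp (0.97), whereas none of the 3 loci named for Bhlhe40 or for Nfil3 was among the first 3.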

How the data were processed

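RNA-seq of bone marrow-derived macrophages was analysed in 53 samples of 18 groups. The authors deposited FPKM per locus, made per sample from polyadenylated, unstranded libraries; the submitters' processing notes name TopHat2 2.0.7, Cufflinks 2.0.2 and mm10. Reads of overlapping genes cannot be told apart without strand. No counts were used, so depth in reads is unknown, relative depth was read from the steps between low FPKM values, the number of samples sets the precision, and count tests could not be applied. The deposited FPKM values were turned here into log2(FPKM + 1), with a pseudocount of 1 FPKM, and loci that reached 1 FPKM in at least 1 sample were kept. One limma 3.58.1 model (R 4.3.3) with a mean per group (35 residual degrees of freedom) and a trended prior gave 22 two-sided contrasts, each adjusted by Benjamini-Hochberg over 11146 loci. It was tested on simulated data. Alternatives were the pseudocount, the filter, the scaling, the samples fitted, a block for the replicate number and leaving out each number. The 10 genes are named throughout; other genes come from fixed lists (other clock genes, immediate early genes, reported targets, cell markers) and from the 3 loci most correlated with Bhlhe40, Nfil3, Per1 and Dbp over group means. One listed target is not reported here. The genes and lists were chosen with earlier results of these data known. Promoter windows came from RefSeq (GRCm38.p6).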

Additional observations from a re-analysis of the deposited data

Results flagged for a closer look

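In 80 WT groups of 4 samples checked gene by gene, 5 held a sample far from the others, where chance gives about 1 in 20 groups, or 4. Bhlhe40 was at 15.6 FPKM in the sample numbered 4 of WT cells with 6 h of IL-4. Nr1d2 was at 14.5 FPKM in number 4 with 1 h of IL-4, and at 17.8 FPKM in number 2 of the 24 h controls. Dbp was at 10.5 FPKM in number 1 of the 24 h controls, which has no counterpart with 24 h of IL-4. Arntl was at 3.66 FPKM in number 1 with 3 h of IL-4, below the others.

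The WT and Stat6KO responses to IL-4 differed, on the log2(FPKM + 1) scale and by limma's test of the difference, in Nfil3 by 3.55, 2.74, 2.82 and 1.34 after 1, 3, 6 and 24 h. Bhlhe40 differed by 2.48 at 6 h and 4.39 at 24 h. At 24 h Dbp differed by -1.95, Nr1d2 by -1.07 and Tef by -0.88. The WT response at 24 h differed from that at 1 h in Bhlhe40 by 4.72, Nfil3 by -2.38, Dbp by -1.56, Nr1d2 by -1.14, Tef by -0.90 and Arntl by 0.48.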

How the results depend on the processing

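Of 531 alternative values of the 41 results of the 10 genes that passed, 471 kept direction and side of the threshold, 54 no longer passed or fell under 2-fold, 6 became calls and 0 reversed. The number of genes called with IL-4 in WT at 1 h was 2 with a pseudocount of 0.1 FPKM, Nr1d1 being added, and that setting also made calls of Nr1d1 at 24 h (-1.17) and Bhlhe41 at 3 h (-1.20). Bhlhe41 at 3 h was called under 4 of 13 settings. Leaving out one number gave 3 to 5 calls in WT at 24 h, 1 to 2 for the difference between genotypes at 3 h and 2 to 4 at 24 h, 2 to 4 for the WT response at 24 h against 1 h, and 0 to 1 for Stat6KO controls at 24 h. Where a Stat6KO number was left out, the lone sample was assumed to vary like the other groups. The difference between genotypes at 3 h gave 2 calls with only the groups compared in the fit. The cause was not tested.

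With the replicate number as a block, that comparison also gave 2 calls, Bhlhe40 being added (adjusted p = 0.000605), and Bhlhe41 passed (0.0256). At 6 h the calls between genotypes went from 2 to 3 with Bhlhe41 (-1.23, adjusted p = 0.00101), and at 24 h Nr1d1 and Per1 passed (0.0429 and 0.0439). Passes with IL-4 in WT went from 6 to 9 at 3 h, with Dbp, Nr1d1 and Tef added. At 6 h they went from 3 to 7, with Dbp, Nr1d1, Nr1d2 and Per1 added. Those of WT controls at 24 h against 0 h went from 3 to 7, with Dbp, Nr1d1, Nr1d2 and Tef added. Those between genotypes in controls went from 4 to 1, with Arntl, Bhlhe41 and Per1 lost. The shares of all loci that passed with the block are not given here. Whether these changes go beyond those of all loci was not tested. Correlations were taken between deviations of same-numbered samples with and without IL-4. In WT r was 0.027 to 0.261 at 1 h and 0.316 to 0.479 at 3 h. It was 0.105 to 0.561 at 6 h and 0.096 to 0.234 at 24 h. In Stat6KO r was 0.791 to 0.9 over the times, and with 2 samples a group the 2 pairs of a time give the same value. Over all pairs of groups the WT mean was 0.223 (-0.145 to 0.572), and 29 of 35 WT samples correlated best with their own number, a hint from the data and not the design. Not every WT pair was over 0.1, so the block was kept as an alternative. Pairing by number remains possible.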
